A study of Mus musculus with 12 samples.

Results

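The genes described here are 9 mouse Toll-like receptors and Unc93b1, the chaperone that carries receptors from the endoplasmic reticulum to endosomes. They were taken by symbol, and all 10 were found among the 27179 Entrez gene IDs of the count tables. They fall into 5 receptors of the cell surface (Tlr1, Tlr2, Tlr4, Tlr5 and Tlr6), 4 receptors of endosomes (Tlr3, Tlr7, Tlr9 and Tlr13) and the trafficking factor. The series profiled polyA RNA of NIH3T3, a line of immortalized embryonic fibroblasts of the mouse, which lacked endogenous RelA (RelA-/-) and carried RelA fused to the red fluorescent protein DsRed, in 4 groups of 3 samples. Cells spent 2 h in microfluidic devices with LPS at 100 ng/mL, with IL-1b or PAM, each at 0.2 ng/mL, or with media alone. All groups shared the RelA deletion and the fusion gene. The labels do not say what drives the fusion gene, or whether replicates came from separate cultures, so the spread between libraries may be technical.

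Counts could be used for 1 group, IL-1. The other 9 tables, labelled LPS, PAM or media, are exact copies of the table of IL-1 replicate 3, and were left out. No treatment is therefore compared with media, and the levels below do not show what IL-1 changed. The 3 IL-1 libraries held 17254518, 18091073 and 18578859 counts. Levels are given as CPM (counts per 1000000 counts of the library), and levels of different genes are compared per kb of merged exon. Fibroblast markers were abundant, with 11 of 12 at 1 CPM or more in each library, against 51.1% of all 20979 protein-coding genes. No B cell marker of 5 reached that level, and their summed level lay between 0.0538 and 0.232 CPM.

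Toll-like receptors bind microbial molecules through leucine-rich repeats and signal through a cytoplasmic TIR domain, which recruits the adaptors MyD88 or TRIF and leads to NF-κB and interferon regulatory factors. Surface receptors detect components of the microbial envelope and of flagella. TLR2 forms heterodimers with TLR1 for triacylated lipopeptides or with TLR6 for diacylated ones, TLR4 with its partner MD-2 binds LPS, and TLR5 binds flagellin. Endosomal receptors detect nucleic acids. TLR3 binds double-stranded RNA, TLR7 single-stranded RNA, TLR9 unmethylated CpG DNA and mouse TLR13 bacterial ribosomal RNA, and they depend on UNC93B1 to leave the endoplasmic reticulum.

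Among the 250 bases before the RefSeq starts of these genes, those of Tlr2 and Tlr3 held a match to the κB consensus, the binding motif of NF-κB. The 30 bases around each are shown for that reason (RefSeq, GRCm38.p6, minus strand, 5′ to 3′; capitals mark the matches), at chr3:83841761-83841790 for Tlr2 and chr8:45410572-45410601 for Tlr3.
Tlr2: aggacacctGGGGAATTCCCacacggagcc
Tlr3: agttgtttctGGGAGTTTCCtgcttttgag
In Tlr2 the capitals are 2 overlapping matches that began 173 and 172 bases before the start, and in Tlr3 the match began 211 bases before it. Both lie within the RefSeq bounds of their genes, which reach further upstream than the starts used for these windows. The Tlr2 match lies outside GENCODE M21 exons of Tlr2, whereas the Tlr3 match lies wholly in an annotated UTR exon of Tlr3. Of 32851 RefSeq windows of this length, 3.9% held a match on either strand. RefSeq entries were found for 7 of the 10 genes, in 9 windows, of which 2 held the κB consensus. The set of windows used here held no entry for Tlr4, Tlr7 or Unc93b1. The core of the interferon response element (either strand) was found in 1 window, of Tlr6, and in 2.98% of all windows. The AP-1 motif TGANTCA was found in 1 window, of Tlr9 (6.75% of all), and TATAAA in 1 window, of Tlr6 (12.4% of all). A match describes letters, not binding.

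Tlr1 and Tlr6 lie next to each other on chromosome 5 and share sequence, which bears on how their reads are told apart. Their coding sequences (GENCODE M21, GRCm38) were identical at 1784 of 2361 aligned bases, or 75.6%. The longest identical run was 229 bases, shown once here because both genes hold it, at chr5:64925537-64925765 in Tlr1 and chr5:64953828-64954056 in Tlr6 (both on the minus strand).
Shared run: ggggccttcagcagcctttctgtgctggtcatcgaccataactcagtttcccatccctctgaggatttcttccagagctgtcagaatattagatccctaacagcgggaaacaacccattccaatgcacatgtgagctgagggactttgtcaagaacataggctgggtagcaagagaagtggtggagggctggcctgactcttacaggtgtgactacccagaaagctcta
The 90 bases that end 300 bases upstream of that run differed at 27 positions, marked by capitals, and are shown as an example of sequence that tells the genes apart (chr5:64926066-64926155 in Tlr1 and chr5:64954357-64954446 in Tlr6, minus strand).
Tlr1: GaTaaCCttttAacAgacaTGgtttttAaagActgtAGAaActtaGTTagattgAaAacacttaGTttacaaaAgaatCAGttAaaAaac
Tlr6: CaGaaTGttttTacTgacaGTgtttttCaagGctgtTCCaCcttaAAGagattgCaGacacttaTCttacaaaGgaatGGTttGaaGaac
Of the distinct 50-base stretches of Tlr1 transcripts, 15.4% also occurred in transcripts of other genes, chiefly Tlr6, and 12.3% of those of Tlr6, chiefly in Tlr1. The shares were 0.0% for Tlr2, Tlr5, Tlr7, Tlr9, Tlr13 and Unc93b1 and 0.216% for Tlr4. For Tlr3 the share was 5.3%, all in Gm45542, an antisense gene that overlaps 381 bases (7.3%) of its exons. Sources used here do not give the read length, the strand setting or the handling of reads that fit several places, so counts of Tlr1 and Tlr6 are uncertain, and reads from the overlapped part of Tlr3 cannot be assigned to a strand.

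Tlr2 stood far above every other receptor of the family in all 3 libraries. Only Tlr2, Tlr3 and Tlr4 reached 1 CPM in each library, 3 of 10 genes against 51.1% of all 20979 protein-coding genes. Another 4 receptors (Tlr1, Tlr6, Tlr7 and Tlr13) had few counts. Tlr5, Tlr9 and Unc93b1 had no count in any library, as did 22.8% of protein-coding genes. In bulk RNA, a low level in every cell and a high level in few cells cannot be told apart.

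**Figure D1:**
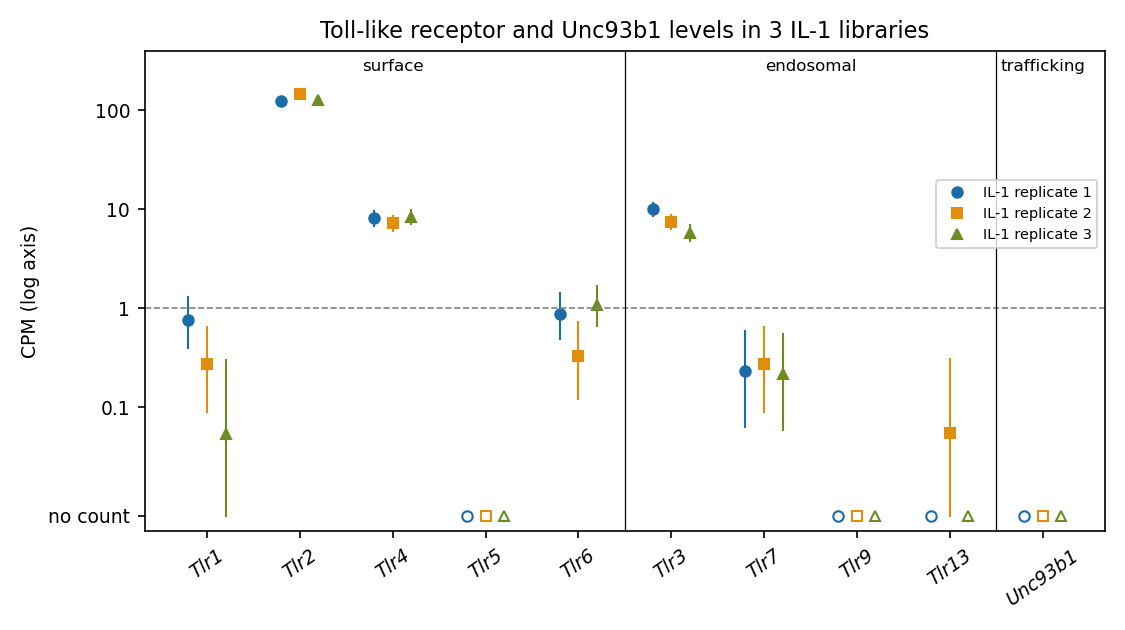
CPM (log axis) of the 9 receptors and Unc93b1 in IL-1 replicates 1, 2 and 3, with exact 95% Poisson intervals of the counts (vertical lines, drawn no lower than the bottom level); open symbols mark libraries with no count and the dashed line marks 1 CPM. Tlr2 lies between 124 and 147 CPM, Tlr3 and Tlr4 between 5.81 and 10.1 CPM, and the rest at or below 1.08 CPM.

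Among the surface receptors, Tlr2 (Entrez 24088, chromosome 3, 83836272 to 83841824, GRCm38) had 2142, 2664 and 2380 counts in replicates 1 to 3. This was 124, 147 and 128 CPM, or 133 ± 12.4 CPM (SD, n = 3). Replicate 2 was highest, and its 95% Poisson interval of 142 to 153 CPM did not overlap that of replicate 1, 119 to 130 CPM. Per kb of exon, Tlr2 was at 44.2 ± 4.10 CPM, and 6.6% of the 20726 protein-coding genes with a known length were higher. Among all of these genes, the 3 nearest to Tlr2 in log2(CPM per kb + 0.1) over the 3 libraries were Denr, Snrpd3 and Med6, at distances of 0.0585, 0.0709 and 0.0844.

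Tlr4, the LPS receptor (Entrez 21898, chromosome 4, 66827551 to 66846581), had 140, 132 and 156 counts. Its level was 7.94 ± 0.571 CPM, and the intervals of its 3 libraries overlapped. Per kb, Tlr2 was 28.2-fold, 37.2-fold and 28.1-fold higher than Tlr4 in replicates 1 to 3 (log2 ratio 4.95 ± 0.23, SD, n = 3; 4.07 with no length scaling). Il1r1, the receptor of the stimulus that these cells were given, lay between them. Per kb, Tlr2 was 5.23-fold to 6.43-fold higher than Il1r1, and Il1r1 was 5.36-fold to 5.78-fold higher than Tlr4.

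The partners of TLR2 were present at trace levels. Tlr1 (Entrez 21897, chromosome 5, 64924680 to 64933600) had 13, 5 and 1 counts, or 0.753, 0.276 and 0.0538 CPM. Tlr6 (Entrez 21899, chromosome 5, 64953092 to 64970942) had 15, 6 and 20 counts, or 0.869, 0.332 and 1.08 CPM. Replicate 2 was low for both genes, and replicate 3 was lowest for Tlr1 and highest for Tlr6.

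Per kb, Tlr2 exceeded Tlr1 by 183-fold, 591-fold and 2640-fold in replicates 1 to 3 (log2 ratio 9.36 ± 1.93). It exceeded Tlr6 by 177-fold, 549-fold and 147-fold (log2 ratio 7.92 ± 1.03). Summed over the libraries, the ratio of Tlr2 to Tlr1 was 420.0-fold (95% exact interval of the counts 269 to 698) and that of Tlr2 to Tlr6 was 217-fold (160 to 302; the bounds cover counting error only). Without replicate 1 the mean log2 ratio of Tlr2 to Tlr1 was 10.29, and without replicate 3 it was 8.36; without replicate 2 that of Tlr2 to Tlr6 was 7.33. With 0.1 added to each CPM per kb, the log2 ratio was 7.86 for Tlr2 to Tlr1 and 7.25 for Tlr2 to Tlr6.

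Whether Tlr6 or Tlr1 was the more abundant partner depended on replicate 3. Tlr6 was 1.04-fold and 1.08-fold the level of Tlr1 per kb in replicates 1 and 2, but 18.0-fold in replicate 3, where Tlr1 had 1 count. The mean log2 ratio of Tlr6 to Tlr1 was 1.44 ± 2.36, smaller than its spread. It was 2.14, 2.11 and 0.08 without replicates 1, 2 and 3 in turn, and 0.61 with 0.1 added to each CPM per kb. Of the 6 ratios set out between these genes, among them that of Unc93b1 to Tlr3, 4 had counts of both genes in every library. The two-sided exact sign-flip permutation test over 3 libraries gave p = 0.25 for each of these 4 (adjusted p = 0.25), the smallest p that 3 libraries allow.

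Tlr5 (Entrez 53791, chromosome 1, 182954752 to 182976044) had no count, and the depth of the 3 libraries leaves room for a level of 0.0556 CPM (3 counts in all; counting error only). Tlr2 supplied 95.6%, 97.1% and 95.9% of the summed CPM per kb of the 5 surface receptors in replicates 1 to 3. Adding 0.1 to each level lowered the mean share to 95.3%, from 96.2% without it.

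Among the endosomal receptors, Tlr3 was the one above 1 CPM. Tlr3 (Entrez 142980, chromosome 8, 45395665 to 45411075) had 174, 135 and 108 counts, or 10.1, 7.46 and 5.81 CPM (7.79 ± 2.15, SD, n = 3). Replicate 1 was highest, with a 95% interval of 8.64 to 11.7 CPM that did not overlap the 4.77 to 7.02 CPM of replicate 3. Per kb, Tlr3 stood at 1.49 ± 0.414 CPM, against 1.43 ± 0.103 CPM for Tlr4, and their ratio ran from 0.739 to 1.33 over the libraries, so these levels did not differ beyond their spread.

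Tlr7 (Entrez 170743, chromosome X, 167303380 to 167330574) had 4, 5 and 4 counts, or 0.241 ± 0.0316 CPM. Tlr3 was 21.2-fold to 34.1-fold higher than Tlr7 per kb. Tlr13 (Entrez 279572, chromosome X, 106143275 to 106160493) had 1 count, in replicate 2. Tlr3 exceeded Tlr13 by 345-fold per kb over the summed libraries, with a counting interval of 61.5 to 13600.

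Tlr9 (Entrez 81897, chromosome 9, 106222598 to 106226876) had no count. Against the floor of 3 counts over all libraries, Tlr3 was at least 92.8-fold higher per kb (log2 ratio 6.54). This bound takes Tlr3 at its summed 417 counts, without their spread. Leaving out each library in turn gave 5.76 to 6.10. The genes on either side of Tlr9, looked up after its value was seen, had many counts, with Twf2, which encodes an actin-binding protein, at 74.8 ± 0.998 CPM and Alas1, of haem synthesis, at 126 ± 4.78 CPM.

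The order per kb was thus Tlr2, then Tlr3 and Tlr4, then Tlr6, Tlr1, Tlr7 and Tlr13. Within this order Tlr3 and Tlr4 overlapped, as did Tlr6 and Tlr1 and, through its low value in replicate 3, Tlr1 and Tlr7. Of the mouse family members outside the 9 receptors, Tlr8 had 2 counts in all and Tlr11 and Tlr12 had none.

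Summed per kb, the 5 surface receptors stood at 43.1, 50.3 and 44.3 CPM in replicates 1 to 3, against 1.99, 1.51 and 1.17 CPM for the 4 endosomal receptors. The surface sum was 21.6-fold, 33.3-fold and 37.9-fold the endosomal sum (log2 ratio 4.91 ± 0.42, SD, n = 3; 4.18 with no length scaling). Tlr2 accounted for nearly all of this. Without it, the other 4 surface receptors summed to 1.92, 1.49 and 1.82 CPM per kb, 0.963, 0.981 and 1.55 times the endosomal sum. Tlr3 made up 97.2%, 94.7% and 95.5% of the endosomal sum. Adding 0.1 to each level lowered the mean share of Tlr3 to 80.9%, from 95.8% without it, as the other endosomal receptors had few counts or none.

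**Figure D2:**
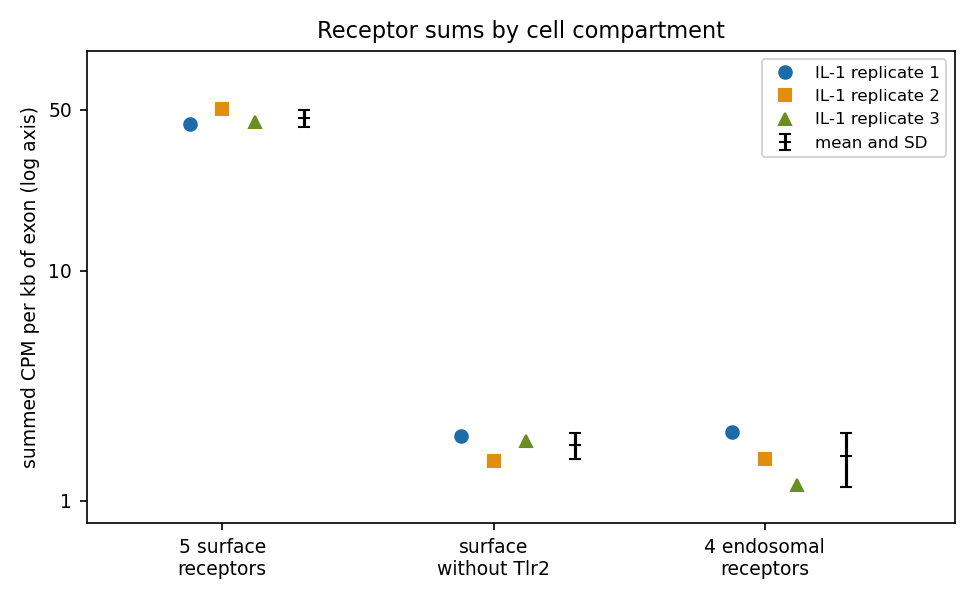
Summed CPM per kb of exon (log axis) of the 5 surface receptors, of the surface receptors without Tlr2 and of the 4 endosomal receptors, as points for IL-1 replicates 1 to 3 with the mean and SD at the right of each. The surface sums lie between 43.1 and 50.3; without Tlr2 they lie between 1.49 and 1.92, beside endosomal sums of 1.17 to 1.99.

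Unc93b1 (Entrez 54445, chromosome 19, 3935158 to 3949340) had no count in any library, although Tlr3, a receptor it carries, did. Set against the same floor of 3 counts over all libraries, Unc93b1 was at least 80.9-fold lower than Tlr3 per kb (log2 ratio -6.34). This bound also leaves out the spread of Tlr3, and was -5.91 to -5.56 when each library was left out in turn. No 50-base stretch of Unc93b1 transcripts occurred in GENCODE M21 transcripts of another gene, and no annotated exon of another gene overlapped its exons. Other parts of the genome were not searched. The nearest genes at 1 CPM or more on either side, looked up after this value was seen, were Aldh3b1 at 2.23 ± 0.706 CPM and Acy3 at 3.45 ± 1.16 CPM, while the adjacent Aldh3b3 had 1, 1 and 0 counts. An effect of the annotation or the alignment on this row was not tested.

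Counts of 3 of the 10 genes, Tlr1, Tlr2 and Tlr3, varied between libraries by more than counting error. The rule is that the 95% intervals of the highest and lowest library do not overlap. It was met by 28.9% of the 19026 genes with any count, and by 45.9% of the 11224 genes at 1 CPM or more in each library. Tlr5, Tlr9 and Unc93b1, with no count, cannot meet it and are outside both of these shares. Of the 3 genes described here that reached 1 CPM in each library, Tlr2 and Tlr3 met it and Tlr4 did not. Without replicate 1 or replicate 3, Tlr2 alone met this rule, and without replicate 2, Tlr1 and Tlr3 did. The rule is met more often at higher counts. Among genes with 0.5 to 2 times the summed count of Tlr1, Tlr2, Tlr3 and Tlr6, it was met by 10.6%, 65.5%, 29.7% and 14.0%, and around Tlr4 by 767 of 2559 genes. The coefficient of variation of Tlr3 over the libraries was 27.7%, and 5.76% of genes with such counts had a higher one. For Tlr2 it was 9.28% (21.0% of such genes higher) and for Tlr4 7.2% (79.1% higher).

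Tlr3 and the interferon-stimulated genes were both highest in replicate 1. Set against the mean of the others, on the log2(CPM + 0.5) scale, Tlr3 differed by 0.57 in replicate 1, -0.09 in replicate 2 and -0.55 in replicate 3. Of 24 listed interferon-stimulated genes, 22 reached 1 CPM in each library and all 22 were highest in replicate 1, as were 45.7% of all genes at that level. Their median difference on the same scale was 0.77 in replicate 1, -0.34 in replicate 2 and -0.37 in replicate 3. The list was chosen with this known, and its part in the values of Tlr3 was not tested. Tlr2 was lowest in replicate 1, at -0.15 on that scale, and Tlr4 was at 0.05 there.

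**Figure D3:**
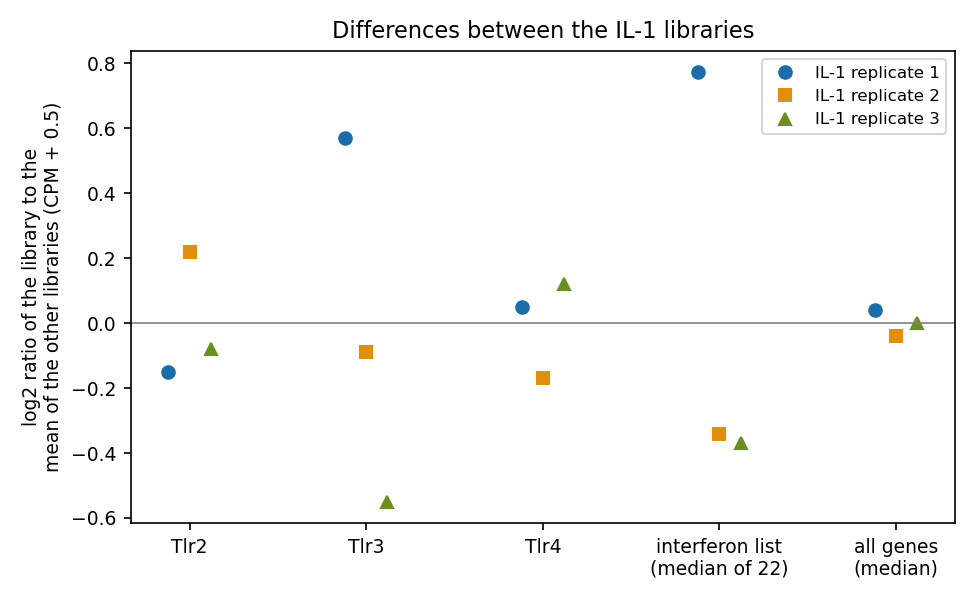
Log2 ratio of CPM + 0.5 in each IL-1 library over its mean in the others, for Tlr2, Tlr3 and Tlr4, for the median of 22 interferon-stimulated genes and for the median of all 11224 genes at 1 CPM or more. Replicate 1 is the highest library for Tlr3 (0.57) and for the interferon list (0.77) but the lowest for Tlr2 (-0.15); the median of all genes stays between -0.04 and 0.04.

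Markers of leukocytes, in which most Toll-like receptors are abundant, ranged from no count to levels above those of Tlr3 and Tlr4. The list of macrophage markers summed to 22.6 to 31.6 CPM. Beside 51.1% of all protein-coding genes, 5 of these 10 markers reached 1 CPM in each library. These were Lyz2 at 7.36 ± 2.05, Cd74 at 5.66 ± 1.01, Cd68 at 1.63 ± 0.752, Mrc1 at 0.673 ± 0.0350 and Csf1r at 0.319 ± 0.0657 CPM per kb (SD, n = 3). Lyz2, which encodes lysozyme, and Cd74, the invariant chain, were above Tlr3 and Tlr4 per kb. C1qa and Fcgr1 had no count, and over the 3 libraries the pan-leukocyte gene Ptprc had 9 counts, Adgre1 had 4 and Itgam had 2. Of 5 dendritic cell markers, only Zbtb46 reached 1 CPM in each library, and the list summed to 6.30 to 10.3 CPM. The macrophage sum was 28.8, 31.6 and 22.6 CPM in replicates 1 to 3. It was highest in replicate 2, as was Tlr2, but lowest in replicate 3, whereas Tlr2 was lowest in replicate 1. Of the 5 markers at 1 CPM, 3 were highest in replicate 2 and 2 in replicate 1. Ptprc, Adgre1 and Itgam had no count in replicate 2. The part of leukocytes in the levels of Tlr2 was not tested.

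The other genes that serve these receptors ranged from abundant to not detected. Of 10 co-receptors and accessory proteins, 5 reached 1 CPM in each library. That level was reached by 51.1% of all protein-coding genes, the share to set beside this count and those of the lists below. Cd14, which hands LPS and lipopeptides to the receptors, was at 17.9 ± 2.66 CPM per kb, and Ly96, which encodes MD-2, at 7.33 ± 0.550 CPM per kb. Per kb, Ly96 was 4.71-fold to 6.06-fold higher than Tlr4, and Cd14 was 10.4-fold to 13.7-fold higher. With no length scaling, Ly96 was not above Tlr4, at 7.49 ± 0.561 CPM against 7.94 ± 0.571 CPM, whereas Cd14 was at 31.1 ± 4.60 CPM. Hmgb1, a nuclear protein that can act as a danger signal, stood at 10.4 ± 0.341 CPM per kb and Rftn1, a lipid raft protein, at 3.23 ± 0.586 CPM per kb. Cd36, a scavenger receptor that assists TLR2 and TLR6, had no count, nor did Cd180 and its partner Ly86.

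Folding and sorting factors were present almost throughout, in contrast to Unc93b1, with 13 of 14 matched genes at 1 CPM or more. Hsp90b1 (gp96), the endoplasmic reticulum chaperone of Toll-like receptors, was at 363 ± 19.6 CPM per kb. Lrrc59 was at 72.5 ± 6.33, Arl8b, a lysosomal GTPase, at 25.5 ± 0.273 and Tmed7, a cargo receptor, at 23.4 ± 2.12 CPM per kb. Slc15a3, a lysosomal peptide transporter, had 1 count. Of 6 endosomal proteases, which cleave nucleic-acid receptors, 3 reached 1 CPM in each library. These were the cathepsins Ctsb at 159 ± 6.72 and Ctsl at 108 ± 9.16 and the asparagine endopeptidase Lgmn at 66.8 ± 6.60 CPM per kb. Ctsk was at 0.249 ± 0.182 CPM per kb, and Ctss, a cathepsin of antigen-presenting cells, had 1 count.

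The shared adaptor Myd88 was 3.52-fold to 4.13-fold higher per kb than Ticam1, which encodes TRIF, the adaptor of TLR3. They stood at 58.0 ± 3.28 and 14.9 ± 1.35 CPM per kb. Of 6 adaptors, 4 reached 1 CPM, with Tirap, which bridges TLR2 and TLR4 to MyD88, at 3.99 ± 0.222 and Sarm1 at 0.359 ± 0.131 CPM per kb. Ticam2, which bridges TLR4 to TRIF, had 2, 0 and 0 counts, and was singled out after its value was seen. Pik3ap1 had 1 count.

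Of 14 downstream kinases and ligases, 12 reached 1 CPM in each library, with Tbk1 at 37.7 ± 2.72, Irak1 at 8.87 ± 1.08, Tab2 at 7.89 ± 0.406 and Ripk1 at 3.72 ± 0.349 CPM per kb. All 8 brakes on receptor signalling did, among them Tollip at 10.6 ± 1.05, the deubiquitinase Cyld at 8.61 ± 0.542 and Tnfaip3, which encodes A20, at 7.04 ± 0.595 CPM per kb. Il1rl1, the IL-33 receptor, which is placed in this list because it can sequester MyD88, was at 1536 ± 33.9 CPM per kb. Counts per gene do not tell its transcript forms apart, and an effect on MyD88 was not tested. The list of IL-1 receptors held 4 genes, 1 of which, Il1rn, encodes the receptor antagonist and not a receptor. Of these 4 genes, 3 reached 1 CPM in each library. They were Il1r1 at 7.86 ± 0.256, Il1rap at 5.59 ± 0.152 and Il1rn at 0.556 ± 0.0293 CPM per kb. Il1r2 was at 0.081 ± 0.140 CPM per kb.

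Cytosolic sensors, which detect nucleic acids and peptidoglycan outside endosomes, included genes well above the endosomal receptors. Of 11 matched sensors and their adaptors, 7 reached 1 CPM in each library. Mavs, the adaptor of RNA helicase sensors, was at 18.8 ± 2.02 CPM per kb, Ddx58 (RIG-I) at 14.5 ± 2.63, the peptidoglycan sensor Nod1 at 8.28 ± 0.352 and the RNA-dependent kinase Eif2ak2 at 3.54 ± 0.985. Each of these means was above that of Tlr3, 1.49 ± 0.414 CPM per kb, but these genes were named for having the highest mean CPM of the list. The means of all other matched sensors were below that of Tlr3, from 0.0213 to 1.40 CPM per kb.

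**Figure D4:**
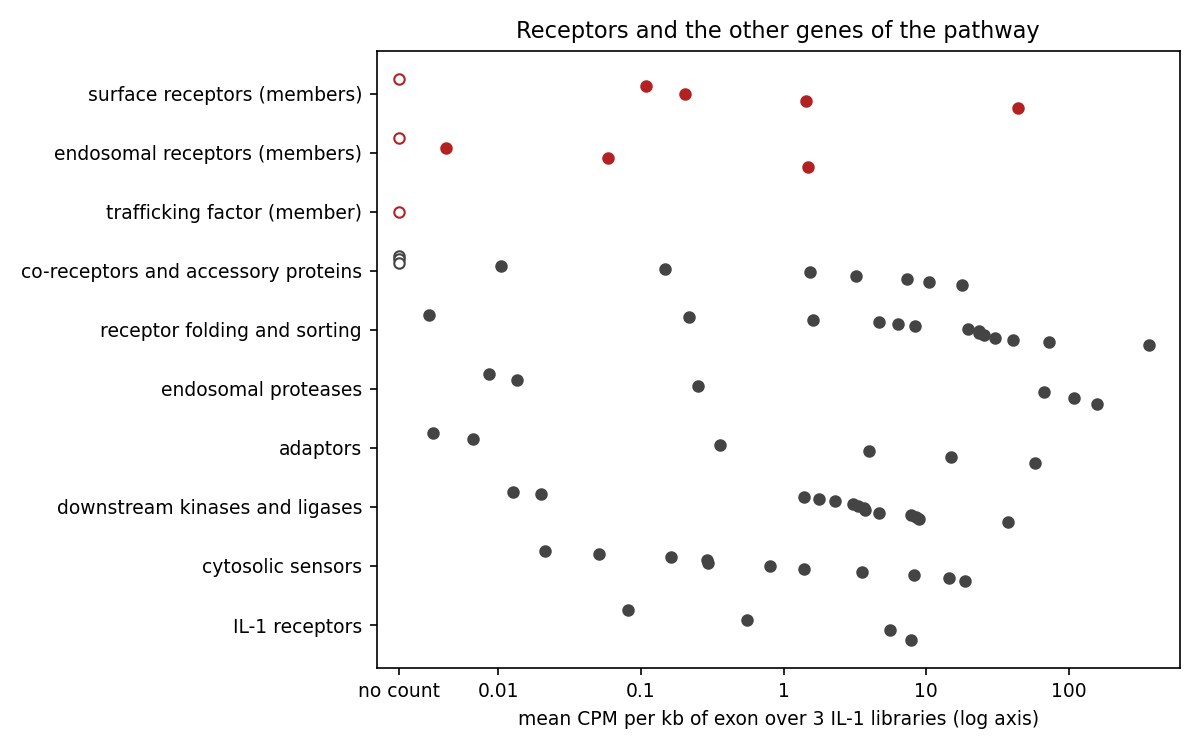
Mean CPM per kb of exon over the 3 IL-1 libraries (log axis), 1 point per gene, for the receptors and Unc93b1 (red) and for the other lists of the pathway (grey; the brakes are not drawn); open points mark genes with no count. Tlr2 at 44.2 lies within the range of the adaptors, whose highest is Myd88 at 58.0, while Unc93b1 is at no count beside folding and sorting factors that reach 363.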

How the data were processed

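PolyA RNA of 12 samples was sequenced; per the labels' protocols, cells were lysed in detergent and cDNA was made without RNA extraction, pre-amplified and tagmented. Deposited tables hold raw counts per Entrez gene ID with no normalization, and featureCounts, STAR and CASAVA are the tools named, with mm10 as build, per the submitters' processing notes. For versions, annotation and strand setting: not given in the sources used here. Counts are reads, since the labels mention no molecular identifiers.

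Tables were compared byte by byte, and the 3 distinct ones, all of the IL-1 group, were kept. The genes, lists and comparisons were chosen with earlier results of these data known. Symbols came from RefSeq (GRCm38.p6, the assembly of mm10) by Entrez ID, for 25275 of 27179 IDs; IDs without one held 2.02% to 2.34% of counts and stayed in the totals. Merged exon lengths came from GENCODE M21. Tasl and Tmem173 matched no symbol. CPM used library totals of 17254518 to 18578859; intervals are exact Poisson intervals at 95%, which the rule on differing libraries uses also at 0; floors and bounds take a count of 0 as up to 3 counts. Intervals cover counting error only. Ratios were tested by an exact sign-flip permutation over libraries. The interval rule was also run on simulated counts. The outcome is not given here, and simulated counts cannot show how reads of pre-amplified cDNA vary. Named genes are all receptors with Unc93b1 and, of each pathway list, up to 4 with the highest mean CPM and those with 0 or 1 count; all 10 macrophage markers are named, and other genes are marked as chosen after their values were seen. Genes of the interferon list are given as counts and medians. Alternatives were other lengths, an added 0.1, scaling factors by relative log expression or TMM (R 4.3.3, edgeR 4.0.16), other minimums and leaving out each library. Python 3.11.15, numpy 2.4.6, pandas 2.3.3, scipy 1.17.1 and matplotlib 3.10.9 were used.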

Additional observations from a re-analysis of the deposited data

How the results depend on the processing

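No paired analysis was possible because the usable tables come from 1 group. Of 70 recomputed values for 12 results, 51 lay within 1 SD (counts of genes: within 1.5 times), 19 did not, and none reversed. The bounds have no SD, and all their recomputed values are among the 19. Where the SD is wide, a large change can lie within it. The log2 ratio of Tlr6 to Tlr1, with an SD of 2.36, went from 1.44 to 0.08 without replicate 3. The number of genes at 1 CPM or more stayed at 3 at minimums of 0.5 and 2 CPM, with other scaling factors and without each library; Tlr6 was close to the threshold, at 0.869 and 1.08 CPM in replicates 1 and 3. With the longest transcript as length, and with no length scaling, the log2 ratio of Tlr2 to Tlr4 was 4.50 and 4.07, the bound of Tlr3 against Tlr9 was 6.78 and 7.12, that of Unc93b1 against Tlr3 was -6.16 and -7.12, and the Tlr2 share was 95.1% and 93.6%. With no length scaling the surface to endosomal log2 ratio was 4.18. Adding 0.1 to each CPM per kb gave a Tlr2 share of 95.3% and a Tlr3 share of 80.9%; it was not run for the bounds. Leaving out each library in turn gave bounds of 5.76 to 6.10 for Tlr3 against Tlr9 and -5.91 to -5.56 for Unc93b1 against Tlr3, since fewer counts raise the floor. It gave 1 to 2 genes that varied beyond counting error: Tlr2 without replicate 1, Tlr1 and Tlr3 without replicate 2, and Tlr2 without replicate 3. With 99% intervals these were Tlr2 and Tlr3. The precision of Tlr1, Tlr6, Tlr7 and Tlr13 is limited by their few counts.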
